A study of Saccharomyces cerevisiae with 8 samples.

Results

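Inhibition of the Mediator kinase Srb10 during heat shock was examined in 4 of the 8 libraries of the series, chosen by their labels: 2 libraries from cells given 1-NA-PP1 and 2 from cells given DMSO, all held at 37 °C. All 4928 transcripts of the deposited count table were taken, and 4901 had enough counts to be tested. Both groups came from budding yeast, Saccharomyces cerevisiae, of mating type alpha. They shared 1 genotype, with the alleles ade2::hisG, his3Δ200, leu2Δ0, lys2Δ0, met15Δ0, trp1Δ63 and ura3Δ0. The chromosomal kinase gene was replaced in both groups (srb10Δ::KanMX), and the centromere plasmid pSH599 supplied TRP1 and srb10as-1, a kinase whose change Y236G opens its ATP pocket to the inhibitor 1-NA-PP1. Cultures growing at 30 °C in medium labelled YPD-Trp were brought from an OD600 of 0.1 to 0.8. They then received 6 µM 1-NA-PP1 or an equal volume of its solvent DMSO, and 12 minutes later were shifted to 37 °C for another 12 minutes. Newly made RNA was marked with 5 mM 4-thiouridine (4tU) for 5 minutes, isolated and sequenced from 100 ng per library. The other 4 libraries, used below as a second setting, are from the same strain with 1-NA-PP1 or DMSO and no heat shock (steady state). No strain with an unmodified Srb10 is among the samples, so an effect of 1-NA-PP1 on other targets was not tested.

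Mediator is the large complex that connects gene-specific transcription factors with RNA polymerase II, and Srb10 (Cdk8 in other organisms) is the kinase of a module that binds Mediator reversibly. With its cyclin Srb11, Srb10 phosphorylates transcription factors, among them the amino acid regulator Gcn4, which is thereby marked for degradation. At high temperature yeast cells switch on chaperone genes through the factor Hsf1 and a broad set of protective genes through Msn2 and Msn4, while they make fewer ribosomes.

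Total counts of the heat shock libraries were 17137998 and 17413120 with 1-NA-PP1 and 17743527 and 14680275 with DMSO. Log2 CPM values (counts scaled to equal library totals) of replicates correlated across genes with r = 0.9948 for 1-NA-PP1 and 0.9926 for DMSO, with median absolute differences of 0.09 and 0.13. Among these 4 libraries the first principal component, 45.9% of the variance, placed both 1-NA-PP1 libraries (7.42 and 8.04) apart from both DMSO libraries (-10.01 and -5.45). The second, 32.3%, separated the DMSO replicates from each other (7.82 and -10.5). ADE2, LEU2, MET17 and URA3 had 0 counts in all 8 libraries, and of the mating type markers MF(ALPHA)1 had 8824 and 7590 counts with 1-NA-PP1 and 8927 and 6536 with DMSO under heat shock, while the mating type a gene MFA1 had 7 and 10 with 1-NA-PP1 and 0 and 3 with DMSO. MFA2, also a mating type a gene, had 6 and 6 with 1-NA-PP1 and 4 and 6 with DMSO. The mating type a genes STE2 and BAR1 were not near 0. STE2 had 472 and 473 counts with 1-NA-PP1 and 375 and 361 with DMSO. BAR1 had 153 and 175 counts with 1-NA-PP1 and 137 and 115 with DMSO. SSN3, the gene of Srb10, had 2623 and 2692 CPM with 1-NA-PP1, against 2291 and 2083 CPM with DMSO, a log2 change of 0.28 that did not pass the test (adjusted p = 0.212). This RNA does not check the inhibition, because 1-NA-PP1 acts on the protein.

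The comparison of 1-NA-PP1 with DMSO under heat shock asked what the kinase activity of Srb10 does to transcription while cells respond to heat. A small set of genes changed, most of them by less than 2-fold. Genes that rose with 1-NA-PP1 were PDC6, YDL218W, HAP4, TPO2, STP4, RCK1, CLN1, NCA3, PIR3 and OPT2, with log2 changes of 0.44 to 1.25. Genes that fell were ARO9, ARG4, ARO10, CCP1, LST8 and SML1, with log2 changes of -0.92 to -0.51. Beyond these genes, most members of some groups had log2 changes of 1 sign without passing the test. They were negative for chaperone genes under Hsf1, amino acid synthesis genes and ribosomal protein genes, and positive for G1 cyclins and replication genes.

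By edgeR's quasi-likelihood test with Benjamini-Hochberg adjustment, 16 of 4901 genes were called at an adjusted p under 0.05 (0.326%), 10 higher (0.204%) and 6 lower (0.122%). Before adjustment, 730 genes (14.9%) had a p under 0.05. The 4 libraries did not overlap for all 16 called genes, but libraries did not overlap for 1138 genes in the higher direction (23.2%) and 1118 in the lower (22.8%), so non-overlap alone is common. With TMM scaling a log2 change is a change against the bulk of genes, so a change shared by all genes is not seen. For a single gene, fewer cells transcribing it cannot be told apart from less of its new RNA per cell. With 2 libraries a group the smallest two-sided p of an exact permutation test of 1 gene is 0.333. The p-values here set a difference against the spread between replicates, estimated over all 8 libraries. The labels do not say whether replicates were separate cultures, so that spread may be technical. The number of calls depended on which libraries estimated the spread. It was 47 with the 4 heat shock libraries alone (0.967%), 232 and 235 without 1-NA-PP1 steady state replicate 1 or 2 (4.74% and 4.81%), and 3 without either DMSO steady state replicate (YDL218W, ARO9 and ARO10). Without DMSO heat shock replicate 1 it was 0 and without replicate 2 it was 1. Without 1-NA-PP1 heat shock replicate 1 it was 1 and without replicate 2 it was 0, and the single gene in both cases was YDL218W. DESeq2 called 227 genes (4.63%) and limma voom with quality weights 65 (1.33%), and all 16 genes were among them. With the factors behind the authors' normalised counts no gene was called by edgeR (685 at an unadjusted p under 0.05), and the median log2 change of all genes moved to -0.62. Before that shift is removed, 44 genes had a positive change with those factors, among them PDC6, YDL218W, HAP4, TPO2, STP4 and RCK1, and every list median was negative. Levels called higher here are so relative to the bulk of genes, and all positive list medians turn negative on that other scale, as do the positive changes of TOS2, CLN3, HXT3, YER158C and GTO1 among others.

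**Figure D1:**
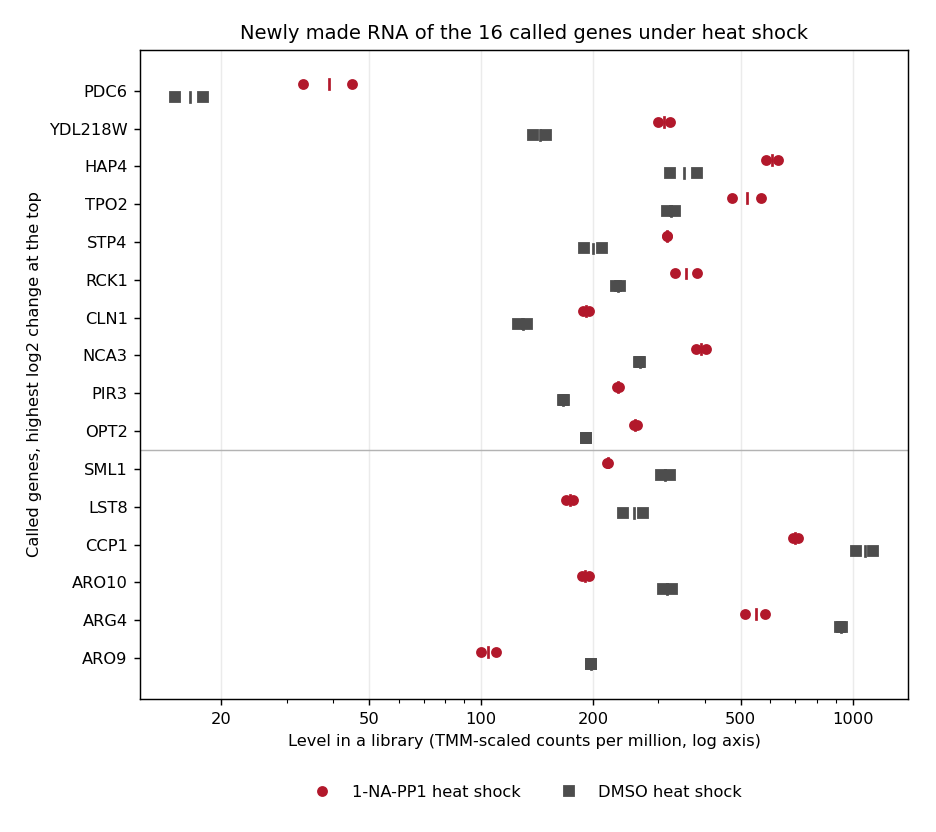
Level of newly made RNA (CPM with TMM scaling, log axis) of the 16 called genes in each heat shock library, with 1-NA-PP1 as red circles and DMSO as grey squares; short bars are means of 2 libraries. The 10 genes above the grey line had higher levels in both 1-NA-PP1 libraries, and the 6 below it had lower levels in both.

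**Figure D2:**
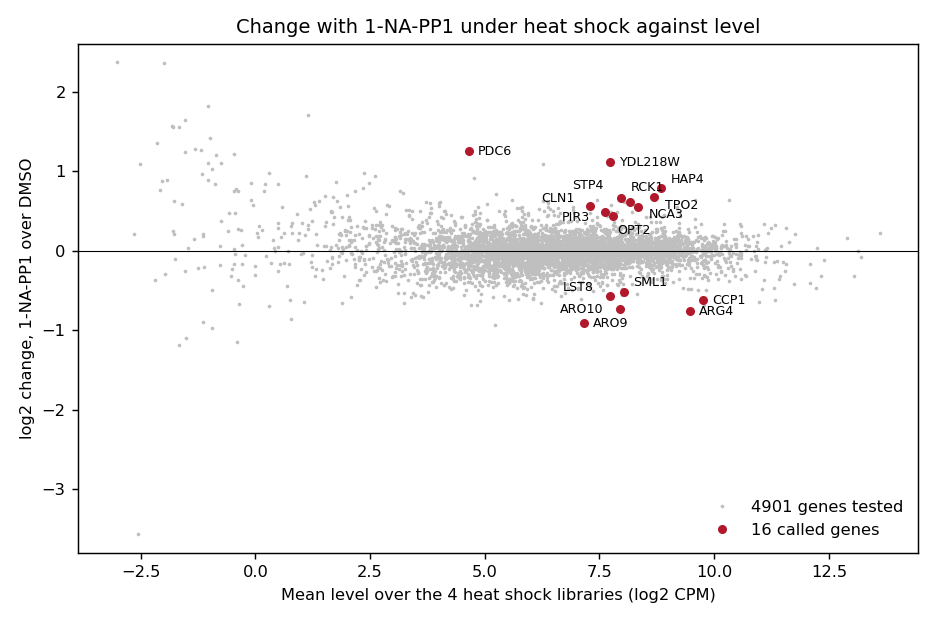
Log2 change of 1-NA-PP1 over DMSO under heat shock against the mean log2 CPM of the 4 heat shock libraries, for 4901 genes (grey) and the 16 called genes (red). Most called genes lie between 0.44 and 0.92 in size, and 23 of the 26 genes with a log2 change over 1 in size have a mean log2 CPM under 3, where counts are few.

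YDL218W, whose product is an uncharacterised membrane protein, had 300.2 and 323 CPM with 1-NA-PP1, against 138 and 149.9 CPM with DMSO. Its transcript lies on chromosome IV at 66148 to 67683 on the plus strand. Both 1-NA-PP1 libraries were about double both DMSO libraries, and its log2 change of 1.11 (SE 0.0763, adjusted p = 0.00191) had the smallest p of all genes. PDC6, a minor isoform of pyruvate decarboxylase on chromosome VII at 651193 to 653013, had 33.2 and 44.9 CPM with 1-NA-PP1, against 15.03 and 17.8 CPM with DMSO. This was the largest rise among the called genes (log2 change 1.25, SE 0.180, adjusted p = 0.0447), at the lowest level of the 16, and its 1-NA-PP1 libraries differed from each other more than those of YDL218W. PDC6 and YDL218W were the 2 called genes whose change exceeded 2-fold.

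HAP4, the activating subunit of the HAP complex that turns on respiration genes, had 585 and 628 CPM with 1-NA-PP1, against 322 and 381 CPM with DMSO (log2 change 0.79, SE 0.115). TPO2, a polyamine exporter of the plasma membrane, had 567 and 475 CPM with 1-NA-PP1, against 317 and 333 CPM with DMSO (0.68, SE 0.102). STP4, a zinc-finger protein related to regulators of amino acid uptake, had 316 and 316 CPM with 1-NA-PP1, against 189.8 and 211 CPM with DMSO (0.66, SE 0.0816). In all 3 the lower 1-NA-PP1 library was well above the higher DMSO library. RCK1, a protein kinase of the oxidative stress response, had 382 and 332 CPM with 1-NA-PP1, against 237 and 231 CPM with DMSO (0.61, SE 0.0864). CLN1, a G1 cyclin that drives entry into the cell cycle, had 195 and 188 CPM with 1-NA-PP1, against 125.5 and 133 CPM with DMSO (0.56, SE 0.0734). Adjusted p was 0.0447 for each of these 5 genes, as for NCA3, PIR3 and OPT2.

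The smallest rises had close replicates, which follows from the selection, because a small change passes the test only where the estimated spread is small. NCA3, a gene of the SUN family, had 404 and 379 CPM with 1-NA-PP1, against 266 and 268 CPM with DMSO, a log2 change of 0.55. PIR3, a glycoprotein of the cell wall, had 235 and 232.5 CPM with 1-NA-PP1, against 166 and 167 CPM with DMSO (0.49). OPT2, a transporter of the oligopeptide family, had 258 and 262 CPM with 1-NA-PP1, against 192 and 191 CPM with DMSO (0.44). Replicates of all 3 genes differed by far less than the groups did. For CLN1, NCA3, PIR3 and OPT2 the sign turns with the factors behind the authors' normalised counts when the shift of all genes is not removed (-0.06, -0.06, -0.13 and -0.18), and the other 6 risers stay positive (0.01 to 0.58).

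ARO9 and ARO10 carried the clearest falls. They encode the aromatic aminotransferase and the phenylpyruvate decarboxylase that break down aromatic amino acids, and both are known targets of the activator Aro80. ARO9 had 99.7 and 109.6 CPM with 1-NA-PP1, against 197.5 and 197 CPM with DMSO, a log2 change of -0.92 (SE 0.0817, adjusted p = 0.00684). ARO10 had 195 and 187 CPM with 1-NA-PP1, against 326 and 309 CPM with DMSO (-0.73, SE 0.0681, adjusted p = 0.00684). The groups were far apart in both genes and replicates were close. ARO9 overlaps a gene on the opposite strand, and no source says whether counting used strand, so its value is uncertain in that respect, which does not hold for ARO10. Of the 5 genes of aromatic amino acid breakdown tested, these 2 fell (0.122% of all genes did) and 0 rose, with a median of -0.32 against 0.00 over all genes tested. The constitutive aminotransferase gene ARO8 had 310 and 305 CPM with 1-NA-PP1, against 377 and 391 CPM with DMSO (-0.32, adjusted p = 0.111). The transporter gene ESBP6 had a log2 change of -0.16 (adjusted p = 0.36). ARO80 itself had 232 and 230.1 CPM with 1-NA-PP1, against 212 and 209.9 CPM with DMSO (0.13, adjusted p = 0.383), with both 1-NA-PP1 libraries slightly above both DMSO libraries.

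The promoters of both genes are shown because they hold several copies of the arrangement Aro80 is known to recognise, CCG triplets separated by 7 bases. The windows are the 250 bases before the deposited transcript start, read 5′ to 3′ on the gene's strand from the RefSeq genome of the R64 assembly (sacCer3), with paired triplets in capitals on either strand. ARO9 (chrVIII:375429-375678, plus strand) holds 5 such pairs, the nearest 103 to 115 bases before the start. ARO10 (chrIV:1233863-1234112, plus strand) holds 4, the farthest 225 to 237 bases before it.
ARO9: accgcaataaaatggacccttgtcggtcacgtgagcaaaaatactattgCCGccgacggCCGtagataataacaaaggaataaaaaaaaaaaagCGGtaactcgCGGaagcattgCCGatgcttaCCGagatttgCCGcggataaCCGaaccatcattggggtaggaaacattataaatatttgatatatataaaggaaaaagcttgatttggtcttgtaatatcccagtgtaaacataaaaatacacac
ARO10: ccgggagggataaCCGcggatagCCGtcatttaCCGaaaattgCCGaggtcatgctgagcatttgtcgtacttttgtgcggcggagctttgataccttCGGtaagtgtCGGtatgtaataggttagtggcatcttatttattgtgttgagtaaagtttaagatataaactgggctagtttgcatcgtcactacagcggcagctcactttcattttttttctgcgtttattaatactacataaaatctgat
In windows of 250 bases before to 50 after the start, such a pair occurred in 4 of the 5 genes of aromatic amino acid breakdown (80%) and in 158 of 4901 promoters of all genes tested (3.22%). Of the 6 genes that fell, 3 held one (ARO9, ARO10 and CCP1), as did 0 of the 10 that rose. A match is a description of the letters and not evidence of binding.

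CCP1, LST8 and SML1 made up the falls outside amino acid metabolism. CCP1, the cytochrome c peroxidase that removes hydrogen peroxide in mitochondria, had 712 and 691 CPM with 1-NA-PP1, against 1022 and 1135 CPM with DMSO (log2 change -0.62, SE 0.0915). LST8, a subunit of both TOR complexes that couple growth to nutrients, had 177 and 169 CPM with 1-NA-PP1, against 273 and 241.5 CPM with DMSO (-0.57, SE 0.0763), and overlaps a gene on the opposite strand. SML1, an inhibitor of ribonucleotide reductase, had 218 and 220.1 CPM with 1-NA-PP1, against 304 and 322 CPM with DMSO (-0.51, SE 0.0714). Adjusted p was 0.0447 for each, and in all 3 the groups lay apart by more than either pair of replicates.

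Arginine synthesis genes had lower mean levels with 1-NA-PP1 throughout the list. Members were measured in the same libraries and are not replicates of the condition, and the list as a whole was not tested. All 8 genes tested had negative log2 changes, with a median of -0.54. The libraries did not overlap in the lower direction for 6 of them (75%, against 22.8% of all genes). Only 1 gene was called (0.122% of all genes were called lower). That gene was ARG4, argininosuccinate lyase, with 582 and 515 CPM with 1-NA-PP1, against 935 and 925 CPM with DMSO (-0.76, SE 0.115, adjusted p = 0.0447); it too overlaps a gene on the opposite strand. ARG1, argininosuccinate synthetase, had a log2 change of -0.55 (adjusted p = 0.199), ARG7, ornithine acetyltransferase, -0.53 (adjusted p = 0.0982) and ARG3, ornithine carbamoyltransferase, -0.60 (adjusted p = 0.262). With the 4 heat shock libraries alone, ARG4, ARG1 and ARG7 were among the genes called lower, in a fit that called 0.412% of all genes lower and 0.556% higher, and DESeq2 called 3 of the 8, against 2.04% of all genes.

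Other amino acid synthesis genes regulated by Gcn4 had the same sign. Of 35 tested, 30 had negative log2 changes, 25 had lower, non-overlapping libraries (71.4%, against 22.8% of all genes), and the median was -0.23, while 0 passed the test. ASN1, an asparagine synthetase, had 636 and 581 CPM with 1-NA-PP1, against 865 and 836 CPM with DMSO (-0.48, adjusted p = 0.0865). HIS1, the first enzyme of histidine synthesis, had a log2 change of -0.45 (adjusted p = 0.0703), HIS5 -0.44 (adjusted p = 0.0892) and the tryptophan synthase gene TRP5 -0.31 (adjusted p = 0.0703). Fitted on the 4 heat shock libraries alone, ILV3, ARO4, ASN1 and ARO1 passed (0.412% of all genes were called lower). DESeq2 called 7 of the 35 lower (2.04% of all genes) and 0 higher. GCN4 itself had 287 and 261 CPM with 1-NA-PP1, against 219 and 261 CPM with DMSO (0.19, adjusted p = 0.602), where 1 library of each group was at the same level. Sulfate uptake and methionine synthesis genes, another branch of amino acid supply, had a median of 0.09 over 19 genes tested, and 0 were called.

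The sequence TGACTC, searched on both strands as the core of Gcn4's site, was present in 6 of the 8 promoters of arginine synthesis genes (75%) and in 25 of 35 of the other Gcn4-regulated genes (71.4%), against 8.16% of all genes tested. The promoter of ARG4 (chrVIII:141458-141707, minus strand, same source and window) is shown as the example of the called gene of this group, with its single match in capitals 119 to 124 bases before the start.
ARG4: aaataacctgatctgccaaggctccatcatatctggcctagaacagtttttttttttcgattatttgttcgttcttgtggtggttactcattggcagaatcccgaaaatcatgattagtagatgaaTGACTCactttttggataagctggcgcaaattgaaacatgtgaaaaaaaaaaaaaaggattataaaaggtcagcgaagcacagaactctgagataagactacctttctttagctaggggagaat

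Chaperone genes that Hsf1 controls had lower mean levels with 1-NA-PP1 throughout the list, while no single member passed the test. All 22 Hsf1 core targets tested had negative log2 changes between -0.64 and -0.14, with a median of -0.36, and for 21 of them both 1-NA-PP1 libraries lay below both DMSO libraries (95.5%, against 22.8% of all genes). By edgeR's quasi-likelihood test 0 of the 22 were called. The count was 2 with the 4 heat shock libraries alone (HSP78 and HSP60), 16 without either 1-NA-PP1 steady state replicate (where 2.66% and 2.7% of all genes were called lower), 9 with limma voom (0.653% of all genes lower, 0.673% higher) and 18 with DESeq2 (2.04% of all genes). Relative to the mean of both DMSO libraries, the list's median was -0.39 and -0.35 in the 1-NA-PP1 libraries and 0.10 and -0.10 in the DMSO libraries. The list median stayed between -0.41 and -0.31 when each heat shock library was left out.

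SSA4, the heat-inducible Hsp70, had 1514 and 1737 CPM with 1-NA-PP1, against 2865 and 2208 CPM with DMSO (log2 change -0.64, adjusted p = 0.0967). HSP78, the disaggregase of mitochondria, had 2036 and 2092 CPM with 1-NA-PP1, against 3477 and 2842 CPM with DMSO (-0.61, adjusted p = 0.0703). In both genes DMSO replicate 1 was far above DMSO replicate 2, and the 1-NA-PP1 libraries were below both. HSP60, the mitochondrial chaperonin, had 2925 and 2954 CPM with 1-NA-PP1, against 3918 and 3945 CPM with DMSO (-0.42, adjusted p = 0.0703), with close replicates in both groups but an overlapping gene on the opposite strand. SIS1, an Hsp40 partner of Hsp70, had 2216 and 2118 CPM with 1-NA-PP1, against 3206 and 2795 CPM with DMSO (-0.47, adjusted p = 0.0703). HSP104, the cytosolic disaggregase that frees proteins from aggregates, had 4043 and 4126 CPM with 1-NA-PP1, against 6221 and 5097 CPM with DMSO (-0.47, adjusted p = 0.105). BTN2, a sorting factor for misfolded proteins, had 4535 and 4685 CPM with 1-NA-PP1, against 5957 and 5504 CPM with DMSO (-0.31, adjusted p = 0.151). The groups did not overlap in any of these 6. CPR6, a co-chaperone of Hsp90, was the exception among the 22, with 924 and 842 CPM with 1-NA-PP1, against 1048 and 902.5 CPM with DMSO (-0.14, adjusted p = 0.514), where the groups overlapped; it also overlaps a gene on the opposite strand.

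**Figure D3:**
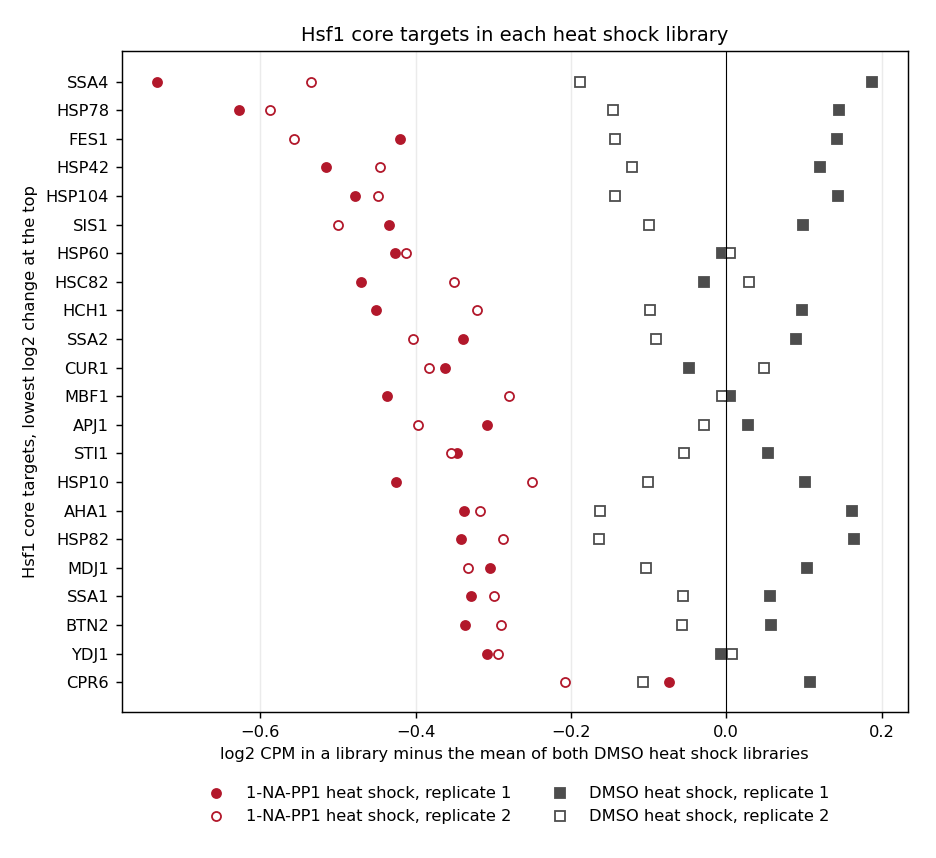
Log2 CPM of the 22 Hsf1 core targets in each heat shock library, minus the mean of both DMSO heat shock libraries (1-NA-PP1 red circles, DMSO grey squares; filled for replicate 1, open for replicate 2). The 1-NA-PP1 libraries lie left of both DMSO libraries for every gene but CPR6, and DMSO replicate 1 lies to the right of replicate 2 for most genes.

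The heat shock element that Hsf1 binds is built of repeats of GAA in alternating orientation. TTCNNGAA and GAANNTTC were both counted, as the different orders of neighbouring repeats. Each reads the same on both strands, and matches could overlap. At least 1 match was held by 21 of the 22 promoters (95.5%), against 23.4% of all genes tested. The list was drawn as Hsf1 targets, so this share says nothing about the response to 1-NA-PP1. HSP78 and SSA4, the members with the largest log2 changes in size, are shown with matches in capitals (HSP78 at chrIV:974273-974522, minus strand, with 3 overlapping matches 201 to 218 bases before the start; SSA4 at chrV:364335-364584, plus strand, with 1 match 242 to 249 bases before it).
HSP78: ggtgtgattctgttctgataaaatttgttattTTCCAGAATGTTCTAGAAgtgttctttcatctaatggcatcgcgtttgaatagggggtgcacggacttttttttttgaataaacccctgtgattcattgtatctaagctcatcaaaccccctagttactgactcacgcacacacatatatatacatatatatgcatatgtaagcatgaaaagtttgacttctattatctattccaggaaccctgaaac
SSA4: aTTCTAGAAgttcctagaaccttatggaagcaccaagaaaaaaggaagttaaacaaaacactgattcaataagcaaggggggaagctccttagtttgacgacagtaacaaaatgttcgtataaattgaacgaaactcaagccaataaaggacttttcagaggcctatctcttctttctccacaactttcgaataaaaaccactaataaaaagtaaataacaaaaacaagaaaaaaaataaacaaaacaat

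Lower libraries without overlap, found for 22.8% of all genes, are counted here by role. Cytosolic Hsp70 chaperones and partners had a median of -0.30 (12 of 14 negative, 11 with non-overlapping lower libraries) and Hsp90 with its co-chaperones of -0.28 (9 of 11 negative, 7 non-overlapping). The Hsp90 median moved to -0.15 without DMSO heat shock replicate 1. For the disaggregase, small heat shock proteins and sorting factors it was -0.36 (6 of 7 negative, 5 non-overlapping), and for mitochondrial chaperones -0.33 (6 of 6 negative, 4 non-overlapping). HSP26, a small heat shock protein gene, was the one positive member of the third group, with 435 and 600 CPM with 1-NA-PP1, against 401 and 404 CPM with DMSO (0.36, adjusted p = 0.557). These lists overlap with the Hsf1 core targets, and 0 of their members were called. Folding genes of the endoplasmic reticulum had a median of 0.01 over 15 genes, with 4 higher (26.7%, against 23.2% of all genes) and 2 lower (13.3%, against 22.8%) without overlap. KAR2, its Hsp70 and a gene that Hsf1 also activates, had a log2 change of -0.31 (adjusted p = 0.232). Proteasome subunits, which degrade damaged proteins, had a median of -0.08 over 31 genes, with 24 negative.

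Genes of the general stress response split in both directions. Of 22 tested, 10 had positive and 12 negative log2 changes, the median was -0.08, and 0 were called. GRE1, a hydrophilic stress protein, had 91.6 and 137 CPM with 1-NA-PP1, against 56.4 and 50.8 CPM with DMSO (1.09, adjusted p = 0.0982). CTT1, the cytosolic catalase, had 812 and 1104 CPM with 1-NA-PP1, against 665 and 565 CPM with DMSO (0.64, adjusted p = 0.255). HSP12, a membrane-protecting protein, had 571 and 792 CPM with 1-NA-PP1, against 854 and 607 CPM with DMSO (-0.10, adjusted p = 0.886). GRE1 and CTT1 had higher, separate 1-NA-PP1 libraries, while HSP12 overlapped, and replicates of all 3 differed widely in at least 1 group. The sign of the list's median depended on single libraries: it was 0.17 without DMSO heat shock replicate 1 and 0.10 without 1-NA-PP1 heat shock replicate 1. Among trehalose and glycogen genes, log2 changes were below 0 for 11 of the 13 tested, and the list's median was -0.12. Lower libraries without overlap were found for 1 of them (7.69%), which is below the 22.8% of all genes. Leaving out DMSO heat shock replicate 1 turned the median of this list to 0.07.

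Oxidative stress genes had mostly negative changes. Of 29 tested, 24 had negative log2 changes, 18 with non-overlapping lower libraries (62.1%, against 22.8% of all genes), and the median was -0.15. CCP1 was the 1 gene called (0.122% of all genes were called lower). ZWF1, which supplies NADPH, had 443 and 401 CPM with 1-NA-PP1, against 597 and 522 CPM with DMSO (-0.41, adjusted p = 0.0898). GRE2, a reductase of the stress response, had a log2 change of -0.38 (adjusted p = 0.0877) and the thioredoxin reductase gene TRR1 -0.35 (adjusted p = 0.149). Transcription factor genes of stress and nutrient responses went the other way: 15 of 18 were positive, 12 with non-overlapping higher libraries (66.7%, against 23.2% of all genes). Their median was 0.21 (-0.42 with the factors behind the authors' normalised counts before their shift is removed). STP4 was the 1 gene called (0.204% of all genes were called higher). MSN4, one of the general stress activators, had 409.9 and 432 CPM with 1-NA-PP1, against 321 and 305 CPM with DMSO (0.43, adjusted p = 0.15), and its partner MSN2 had 861 and 850.0 CPM with 1-NA-PP1, against 695 and 764 CPM with DMSO (0.23, adjusted p = 0.18). HSF1 had a log2 change of 0.08 (adjusted p = 0.716).

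**Figure D4:**
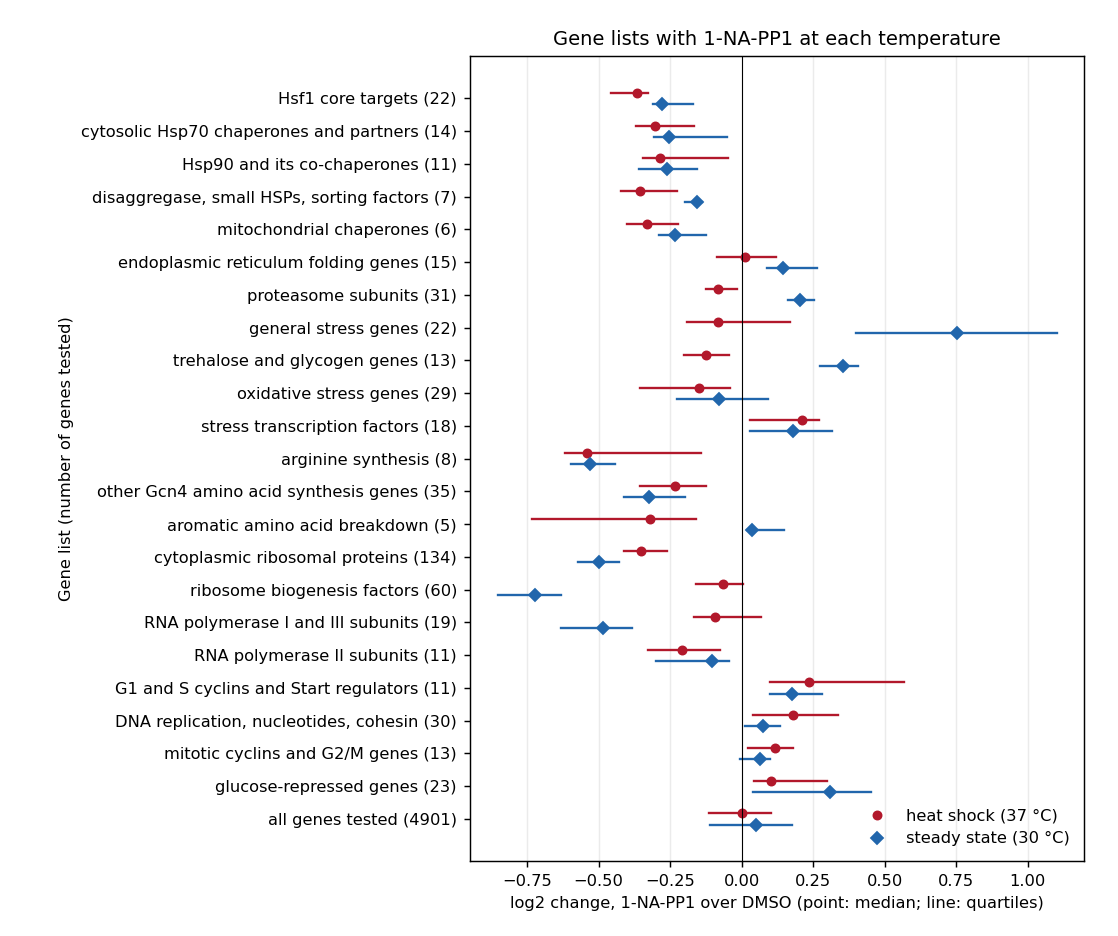
Median log2 change of 1-NA-PP1 over DMSO for gene lists, with lines from the lower to the upper quartile, under heat shock (red circles) and at steady state (blue diamonds); numbers of genes tested are in brackets. Hsf1 core targets, amino acid synthesis genes and ribosomal proteins lie below 0 at both temperatures, while general stress genes and ribosome biogenesis factors lie near 0 under heat shock and far from it at steady state, at 0.75 for general stress genes and -0.72 for ribosome biogenesis factors.

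Ribosomal protein genes had lower levels with 1-NA-PP1 in almost every case. Of 134 tested, 133 had negative log2 changes, 116 with non-overlapping lower libraries (86.6%, against 22.8% of all genes), and the median was -0.35, while 0 were called. DESeq2 called 3 lower (2.04% of all genes), and without 1-NA-PP1 steady state replicate 1 or 2 edgeR called 31 and 32 lower (2.66% and 2.7% of all genes). RPS25A had 21.2 and 24.1 CPM with 1-NA-PP1, against 40.3 and 32.3 CPM with DMSO (-0.68, adjusted p = 0.0703). RPS22B had 79.6 and 70.5 CPM with 1-NA-PP1, against 101 and 109 CPM with DMSO (-0.48, adjusted p = 0.0967), and RPL10, which has no near-identical copy, 170.3 and 156 CPM with 1-NA-PP1, against 226 and 207 CPM with DMSO (-0.41, adjusted p = 0.168). Most of these genes come as pairs of close copies, so reads may be split between copies and single values are uncertain. Their transcripts are short, with a median length of 935.5 bases against 1435 over all genes tested, and the part of length in this result was not tested.

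Factors that assemble ribosomes did not share this size. Ribosome biogenesis factors had a median of -0.07 over 60 genes, with 43 negative and 7 with non-overlapping lower libraries (11.7%, below the 22.8% of all genes), and 0 were called. Subunits of RNA polymerases I and III, the makers of ribosomal and transfer RNA, showed a median of -0.09 over 19 genes, also with 0 called. The DMSO replicates differed for ribosome biogenesis genes (medians of -0.14 in replicate 1 and 0.14 in replicate 2 against their mean), and leaving out DMSO heat shock replicate 2 turned the median to 0.11 for ribosome biogenesis factors and to 0.02 for the polymerase subunits. Among TOR subunits and regulators of ribosome genes, LST8 fell, and CRF1, a corepressor of ribosomal protein genes, had 47.3 and 49.1 CPM with 1-NA-PP1, against 30.4 and 28.5 CPM with DMSO (0.71, adjusted p = 0.0764). CRF1 was called with the 4 heat shock libraries alone. The median of that list, 15 genes tested, was 0.07.

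Cell cycle genes were taken list by list. Among G1 and S cyclins and regulators of Start, the commitment step of the cycle, 9 of 11 had positive log2 changes. Higher libraries without overlap were found for 6 (54.5%, against 23.2% of all genes). The median was 0.24 (-0.37 with the factors behind the authors' normalised counts before their shift is removed). CLN1 was the 1 gene called (0.204% of all genes were called higher). CLN3, the cyclin that starts the sequence, had 1631 and 1575 CPM with 1-NA-PP1, against 917 and 1153 CPM with DMSO (0.63, adjusted p = 0.0648). CLN2, the partner of CLN1, had 267 and 258 CPM with 1-NA-PP1, against 155 and 199.6 CPM with DMSO (0.57, adjusted p = 0.0967), and the S-phase cyclin CLB6 7.81 and 6.73 CPM with 1-NA-PP1, against 2.71 and 4.84 CPM with DMSO (0.97, adjusted p = 0.118). The groups were separate in all 4 cyclin genes. SIC1, which inhibits S-phase cyclins, had a log2 change of -0.12 (adjusted p = 0.489).

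Most replication genes also had positive changes. Of 30 genes of DNA replication, nucleotide reduction and cohesin tested, 23 had positive log2 changes, 19 with non-overlapping higher libraries (63.3%, against 23.2% of all genes), and the median was 0.18 (-0.45 with the factors behind the authors' normalised counts before their shift is removed). The 1 gene called was SML1, which fell (0.122% of all genes were called lower). RNR1, the large subunit of ribonucleotide reductase and the enzyme Sml1 inhibits, had 101 and 102 CPM with 1-NA-PP1, against 66.2 and 65.6 CPM with DMSO (0.62, adjusted p = 0.0612). The inhibitor's RNA was thus lower and that of its target enzyme higher, the second without passing, and RNR1 overlaps a gene on the opposite strand. CDC45, a helicase component, had 63.1 and 65.8 CPM with 1-NA-PP1, against 48.4 and 48.1 CPM with DMSO (0.42, adjusted p = 0.0703). MSH6, of mismatch repair, had a log2 change of 0.48 (adjusted p = 0.0762) and the cohesin subunit gene SMC3 0.48 (adjusted p = 0.0876). DESeq2 called 7 of the 30 higher (2.59% of all genes) and SML1 lower. The 6 subunits of the replicative helicase were close to 0, with log2 changes between -0.03 (MCM5) and 0.09 (MCM4). The letters ACGCGT, the core that the MBF complex recognises, occurred in 17 of the 30 promoters (56.7%), against 3.8% of all genes. Mitotic cyclins and G2/M genes had a median of 0.12 over 13 genes (-0.50 before that shift is removed), 10 positive and 8 with non-overlapping higher libraries (61.5%, against 23.2% of all genes), with 0 called. Histone genes, which are transcribed in S phase, had a median of -0.07 over 10 genes, 9 of them negative, which was 0.07 without DMSO heat shock replicate 1. Replication genes of the list are long, with a median of 2172 bases, and the part of length was not tested.

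HAP4 was the 1 gene called among the 4 HAP genes tested (0.204% of all genes were called higher). HAP2, HAP3 and HAP5, which form the DNA-binding part of the complex, had log2 changes of -0.02, -0.21 and -0.10 (adjusted p = 0.929, 0.469 and 0.791). Nuclear genes of respiration, which the complex activates, had a median of 0.04 over 38 genes, with 22 positive, 16 negative and 0 called. NDE1, a mitochondrial NADH dehydrogenase, had 257 and 251 CPM with 1-NA-PP1, against 213 and 197 CPM with DMSO (0.31, adjusted p = 0.118), while CYC1, a cytochrome c gene, had 17.4 and 20.7 CPM with 1-NA-PP1, against 23.9 and 24.3 CPM with DMSO (-0.34, adjusted p = 0.299), with a gene on the opposite strand. The median of the respiration genes compares with 0.00 over all genes tested. Glucose-repressed genes had a median of 0.10 over 23 genes, 20 of them positive (-0.49 before the shift is removed), and hexose transporters and glucose sensors one of 0.23 over 10 genes, 0 called in either. HXT3, a glucose transporter of low affinity, had 253 and 224 CPM with 1-NA-PP1, against 177 and 174 CPM with DMSO (0.44, adjusted p = 0.0648). PDC6 was the 1 gene called among 16 pyruvate decarboxylases, alcohol and aldehyde dehydrogenases (0.204% of all genes were called higher). The median of that list was -0.13. Glycolytic enzymes had a median of -0.05, with TDH2 at 0.40 (adjusted p = 0.151) and HXK2, the main hexokinase on glucose, at -0.49 (adjusted p = 0.17).

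Transporter and surface genes held the remaining calls. Of 13 multidrug and polyamine exporters TPO2 rose (0.204% of all genes did). Its relatives TPO3 and TPO4 had log2 changes of 0.38 (adjusted p = 0.0848) and -0.18 (adjusted p = 0.33), with a list median of 0.08. Of 29 cell wall genes, 2 rose, NCA3 and PIR3 (0.204% of all genes did), with a list median of 0.06. SPS100, a spore wall protein gene of that list, had 35.9 and 38.8 CPM with 1-NA-PP1, against 22.4 and 17.02 CPM with DMSO (0.92, adjusted p = 0.0703), with a gene on the opposite strand. SLT2, the kinase of the cell wall integrity pathway, had 932.5 and 976 CPM with 1-NA-PP1, against 1127 and 1214 CPM with DMSO (-0.29, adjusted p = 0.147). Amino acid permeases had a median of 0.00 over 19 genes. Within them GAP1, the general permease that is made when nitrogen is poor, had 148 and 147 CPM with 1-NA-PP1, against 101 and 100.4 CPM with DMSO (0.54, adjusted p = 0.0792), and the proline permease PUT4 100.7 and 104 CPM with 1-NA-PP1, against 70.5 and 64.3 CPM with DMSO (0.60, adjusted p = 0.118). Both were called with the 4 heat shock libraries alone, in a fit that called 0.556% of all genes higher. Iron regulon genes had a median of 0.14 over 21 genes, phosphate regulon genes of 0.05 over 14 and ergosterol synthesis genes of 0.02 over 22, each with 0 called.

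Near the threshold, 117 genes had an adjusted p under 0.10 (2.39%), 65 higher (1.33%) and 52 lower (1.06%). Among those with the smallest p above 0.05, TOS2, a bud neck protein gene, had 41.2 and 39.9 CPM with 1-NA-PP1, against 27.3 and 26.9 CPM with DMSO (0.58, adjusted p = 0.0612). WSC4, of a family of surface sensors, had 218 and 217 CPM with 1-NA-PP1, against 140.2 and 140.3 CPM with DMSO (0.63, adjusted p = 0.0648). In the lower direction OPI10 had 214 and 217 CPM with 1-NA-PP1, against 280.2 and 286 CPM with DMSO (-0.40, adjusted p = 0.0548). BDF2, a bromodomain protein gene, had 704 and 655 CPM with 1-NA-PP1, against 948 and 958 CPM with DMSO (-0.49, adjusted p = 0.0621). All 4 had separate groups and close replicates, and OPI10 and BDF2 overlap a gene on the opposite strand. YER158C, GTO1, MMF1, YGR210C and ODC2 were the others there, at 0.58, 0.44, -0.57, -0.41 and -0.58.

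Genes of the transcription machinery had no called member. Of the kinase module, SSN3 and SSN8, the cyclin gene, were tested, and SSN8 had 135 and 126 CPM with 1-NA-PP1, against 115 and 111 CPM with DMSO (0.21, adjusted p = 0.321). TRP1, carried on the same plasmid as the kinase gene, had 123 and 145 CPM with 1-NA-PP1, against 126 and 102 CPM with DMSO (0.24, adjusted p = 0.469), with overlapping groups. The other 18 Mediator subunits tested had a median of 0.04. RNA polymerase II subunits had a median of -0.21 over 11 genes, 10 negative and 6 with non-overlapping lower libraries (54.5%, against 22.8% of all genes), and 0 were called. RPC10 was the member with the smallest p (-0.42, adjusted p = 0.0876), and overlaps a gene on the opposite strand. Genes of factors known as Srb10 substrates had a median of 0.18 over 6 genes. GAL4, the galactose activator, had 56.7 and 53.0 CPM with 1-NA-PP1, against 43.5 and 42.3 CPM with DMSO (0.35, adjusted p = 0.12) and overlaps a gene on the opposite strand, and STE12, of mating, had a log2 change of 0.17 (adjusted p = 0.405).

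The log2 change with 1-NA-PP1 under heat shock varied with transcript length. In 4 classes of about equal size, of 168 to 958, 959 to 1435, 1436 to 2054 and 2055 to 4982 bases, the median log2 change was -0.08, -0.03, 0.02 and 0.06. The share of genes with higher, non-overlapping libraries was 10.5%, 16.5%, 25.8% and 40.1% from the shortest to the longest class, and that with lower ones 32.7%, 29.7%, 19.2% and 9.63%. The order of the medians was the same without ribosomal protein genes (-0.07, -0.02, 0.02 and 0.06) and when each of the 4 heat shock libraries was left out. At steady state the medians were 0.02, 0.03, 0.05 and 0.09. Of the called genes, 10 of the 10 risers and 3 of the 6 fallers were longer than the median of 1435 bases. The part of length in the results above was not tested. In 4 such classes by mean level the medians ran from -0.01 to 0.01.

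At steady state, log2 changes with 1-NA-PP1 against DMSO were larger than under heat shock, and none passed the test. EdgeR called 0 of 4901 genes (0%), with 1608 at an unadjusted p under 0.05 (32.8%), while DESeq2 called 986 and limma voom 749, and without 1-NA-PP1 steady state replicate 1 edgeR called 1712. The median size of a log2 change was 0.11 under heat shock and 0.15 at steady state, and 157 genes under heat shock and 492 at steady state exceeded 0.5 in size. Across 4901 genes, which are not independent replicates and share the scaling of each library, the changes correlated with Pearson's r = 0.38 and Spearman's rho = 0.36, and 62.8% had the same sign. The 2 comparisons share no library.

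**Figure D5:**
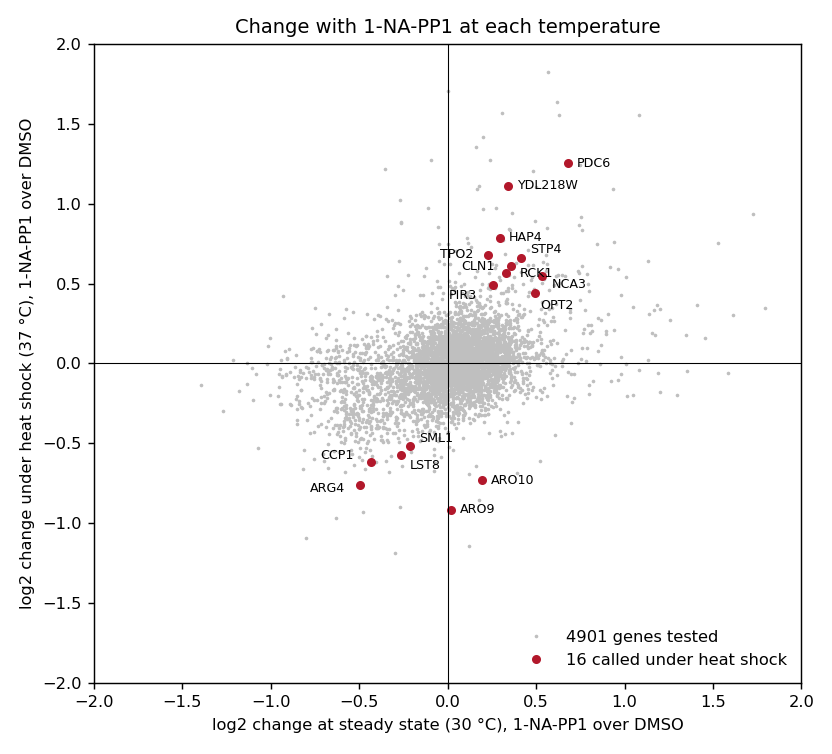
Log2 change of 1-NA-PP1 over DMSO under heat shock (vertical axis) against that at steady state (horizontal axis) for 4901 genes, with the 16 genes called under heat shock in red; 3 genes lie outside the axes. All called genes but ARO9 and ARO10 lie in quadrants of equal sign, and those 2 lie to the right of 0 at steady state and well below 0 under heat shock.

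The difference between the 2 changes was tested directly as an interaction, and 1 gene was called (0.0204%), with 661 at an unadjusted p under 0.05 (13.5%). That gene was ARO10, whose log2 change was -0.73 under heat shock and 0.20 at steady state, a difference of -0.93 (SE 0.0963, adjusted p = 0.0474). At steady state ARO10 had 49.3 and 48.2 CPM with 1-NA-PP1, against 42.3 and 42.9 CPM with DMSO. ARO9 had 61.8 and 58.3 CPM with 1-NA-PP1 at steady state, against 61.3 and 57.2 CPM with DMSO, and a difference of -0.94 that did not pass (adjusted p = 0.0802). With DMSO the CPM of both genes was several times higher under heat shock than at steady state, a difference that was not tested. The call on ARO10 was lost with RLE factors, without the filter on low counts, and without any 1 of the 4 heat shock libraries or either DMSO steady state library, while 848 genes were called without 1-NA-PP1 steady state replicate 1 and 2 without replicate 2.

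The other 14 called genes had the same sign at both temperatures. YDL218W had 14.2 and 14.3 CPM with 1-NA-PP1 at steady state, against 11.4 and 11.1 CPM with DMSO, a log2 change of 0.34, with a difference between temperatures of 0.77 (adjusted p = 0.161). PDC6 had 1.59 and 1.84 CPM with 1-NA-PP1 at steady state, against 0.941 and 1.20 CPM with DMSO (0.68). NCA3 had a log2 change of 0.55 under heat shock and 0.53 at steady state, and OPT2 one of 0.44 under heat shock and 0.49 at steady state. None of these differences passed the test, which does not show that the changes are equal.

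Some gene lists had medians on the same side of 0 in both settings. The median of Hsf1 core targets was -0.36 under heat shock and -0.28 at steady state. That of arginine synthesis genes was -0.54 under heat shock and -0.53 at steady state, and that of ribosomal proteins -0.35 under heat shock and -0.50 at steady state. Other lists stood near 0 under heat shock and away from it at steady state. General stress genes had a median of -0.08 under heat shock and 0.75 at steady state, and trehalose and glycogen genes one of -0.12 under heat shock and 0.35 at steady state. Proteasome subunits had a median of -0.08 under heat shock and 0.20 at steady state, and ribosome biogenesis factors one of -0.07 under heat shock and -0.72 at steady state. The median difference of the log2 changes was -0.58 for general stress genes, -0.50 for trehalose and glycogen genes, -0.29 for proteasome subunits and 0.67 for ribosome biogenesis factors, against -0.04 over all genes tested, with 0 members called in the interaction (0.0204% of all genes). The authors' deposited list of heat shock response genes, which may have been chosen on these samples, had a median of -0.11 under heat shock and 0.35 at steady state over 22 genes, with 0 called at either temperature.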

How the data were processed

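Raw read counts per open reading frame transcript were used as deposited by the authors, from 8 libraries of 4tU-labelled RNA in 4 groups. Per the submitters' processing notes the tools were HTSeq, DESeq2, SAMtools, STAR 2.5.2b and cutadapt 1.9.1, and the build was sacCer3. Per the labels' protocols, libraries were made with the NuGEN Ovation Universal RNA-Seq system. Whether counting used strand is not given in the sources used here. The authors' normalised heat shock counts, a signal equal to each count divided by 1 factor per library, gave factors of 1.10 and 1.57 for 1-NA-PP1 and 1 and 0.621 for DMSO. The deposited ratio file of normalisation factors gives other values (0.326 and 0.218 for 1-NA-PP1, 1 and 0.910 for DMSO), and which set the authors used downstream is not stated. The factors behind the normalised counts served only as a check. Those of the ratio file entered no fit, so the changes on their scale were not tested. Median-of-ratios factors computed from the counts were 0.968 and 0.991 for 1-NA-PP1 and 1 and 0.817 for DMSO. The deposited annotation supplied other values, namely coordinates, strand and transcript length, and 4842 of 4928 names matched RefSeq's R64 annotation.

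In edgeR 4.0.16 (R 4.3.3), counts passing filterByExpr were scaled by TMM and fitted with the quasi-likelihood model over all 8 libraries, which share 1 estimate of the spread, and p-values were adjusted by Benjamini-Hochberg over 4901 genes, called under 0.05. The standard error is the size of the log2 change divided by the root of F. Alternatives were RLE factors, no filter, DESeq2 1.42.0, voom with quality weights (limma 3.58.1), single temperatures, a replicate block and leaving out each library. The fit was tested on simulated data. Intervals and floors would cover counting error only, and 3 counts equal 0.180 to 0.220 CPM under heat shock. The members, gene lists and tests were chosen with earlier results of these data known. By rule, the text names the called genes, those next to the threshold (both at log2 CPM 3 or above with groups apart), up to 4 members of each list by p, all members of lists of 5 or fewer, called genes of the interaction, and SSN3, SSN8, TRP1, HSP104, SSA4, BTN2, HSP12, HSP26, CTT1, GCN4 and MSN2. ARG3, ILV3, ARO4, ARO1, CPR6, HSF1, SIC1, SMC3, MCM4, MCM5 and STE3 fall outside it and were chosen after their values were seen. Promoters were read from the RefSeq R64 genome around the deposited transcript starts. Figures were drawn with matplotlib 3.10.9. One gene of a list is not reported here.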

Additional observations from a re-analysis of the deposited data

Results flagged for a closer look

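ARO10, the phenylpyruvate decarboxylase gene, was singled out because its response to 1-NA-PP1 differed between temperatures by a test of the difference itself. The log2 change under heat shock minus that at steady state was -0.93 (edgeR's quasi-likelihood test, adjusted p = 0.0474). This call was close to the threshold and was lost with RLE factors, without the low-count filter and with the replicate block. It was lower with 1-NA-PP1 in both heat shock libraries and higher in both steady state libraries.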

How the results depend on the processing

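None of the 16 called genes changed direction under any alternative run, once the shift of all genes with the factors behind the authors' normalised counts was removed. Under heat shock the count of called genes, 16 as reported and 16 with RLE factors, was 13 without the low-count filter, which lost ARG4, CCP1 and TPO2, 227 with DESeq2, 65 with voom, 47 with only the 4 libraries of that temperature and 0 with the factors behind the authors' normalised counts, and ranged from 0 to 235 when 1 library was left out. At steady state it was 0 as reported, 986 with DESeq2 and 749 with voom, and ranged from 0 to 1712 when 1 library was left out. For the difference between temperatures it was 1 as reported, 1 with voom, 24 with DESeq2, 0 with RLE factors and 0 without the low-count filter, and ranged from 0 to 848. With the replicate block the counts were 0 under heat shock, 0 at steady state and 0 for the difference, and the deviations of same-numbered libraries correlated at 0.00088 under heat shock and -0.31 at steady state, so the numbers were not taken as pairs; whether libraries share a day or batch is not given in the sources used here. A crossed pairing of the steady state libraries, added after seeing the data, called 0 genes. Where leaving out a library left a group with 1 library, that library was assumed to vary like the others. The cause of these shifts was not tested. Depth limits genes with few counts, and 2 libraries per group limit every estimate of spread.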

Other observations

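Genes outside the groups described above also had separate libraries. SAG1, the alpha-agglutinin by which alpha cells bind partners in mating, had a level higher by 0.39 on the log2 scale in heat-shocked 1-NA-PP1 cells than in DMSO cells. Its p missed the threshold (edgeR's quasi-likelihood test, adjusted p = 0.0703). STE3, the receptor of alpha cells for the a pheromone, had 4329 and 3935 counts with 1-NA-PP1 and 3425 and 3036 with DMSO. These counts are unscaled, and library totals differed, so they do not measure its change. Over the 3 mating type alpha genes tested, scaled log2 changes ran from -0.01 to 0.39, with a median of 0.24. Of these 3 genes, 2 had higher, non-overlapping 1-NA-PP1 libraries (23.2% of all genes did), and 0 were called.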
